A study of Mus musculus with 8 samples.

Results

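The Skint genes Skint1 to Skint10, a mouse family of butyrophilin-like membrane proteins, were followed in skin treated with MC903 alone or with MC903 plus phytic acid. Members were the rows of the gene expression table that carry these names, 10 of 21885 named genes, and all 10 were found. MC903 (calcipotriol) is a vitamin D analogue that causes dermatitis resembling atopic dermatitis when applied to mouse skin, and phytic acid is an inositol phosphate of plant seeds. The 8 libraries were made from whole skin RNA, 4 from the MC903 group, which the submitters name as control, and 4 from the group given MC903 together with phytic acid. Both groups thus carry the MC903 treatment, and no untreated skin is part of the comparison. The labels state no strain, sex, age, dose, route or time. The labels also do not say whether the 4 libraries of a group came from separate animals, so p-values measure the spread between these libraries, which may be technical. The family was picked because its FPKM values (fragments scaled by exon length and by library total) differed between these groups. Its group differences are therefore given as a description with no test.

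Skint proteins carry an immunoglobulin-like outer domain and several membrane spans, and are made in epidermal keratinocytes and in the thymus. Skint1, the founding member, is known for its need in the thymus, where it selects the gamma delta T cells that later settle in mouse epidermis as dendritic epidermal T cells. These T cells touch keratinocytes, sense their damage and release growth factors and cytokines, and Skint3 and Skint9 have been linked with this contact at wound edges. Much less is known of the other members.

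The 10 genes lie in a row on chromosome 4 (chr4:111919392-113999503, GRCm38, the assembly that mm10 names). In chromosomal order they are Skint8, Skint7, Skint1, Skint4 and Skint3 on the plus strand, Skint9 on the minus strand, Skint2 on the plus strand, and Skint10, Skint6 and Skint5 on the minus strand. The next family gene, Skint11, begins 163881 bases beyond and is no member. Promoter windows of 300 bases (250 before to 50 after each annotated start) were taken from RefSeq (GRCm38.p6), and all 10 members matched, Skint4 with 2 starts. The RefSeq starts of Skint8 and Skint2 lie 163 and 56546 bases from the gene starts of the GENCODE annotation, and the ends of these 2 windows were found in no GENCODE transcript of their gene, so positions within them rest on the RefSeq start alone. The windows are shown because they group the members by shared sequence, which the choice of members did not use. Windows of 5 members held the same 14 bases, in capitals below, at different distances from the start. The stretches are printed 5′ to 3′ on the strand of the gene.

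Skint1: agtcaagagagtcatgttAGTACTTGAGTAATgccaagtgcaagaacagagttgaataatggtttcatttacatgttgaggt

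Skint4: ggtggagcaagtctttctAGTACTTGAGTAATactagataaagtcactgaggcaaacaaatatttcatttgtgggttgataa

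Skint3: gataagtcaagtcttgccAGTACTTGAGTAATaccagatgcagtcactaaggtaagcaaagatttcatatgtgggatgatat

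Skint6: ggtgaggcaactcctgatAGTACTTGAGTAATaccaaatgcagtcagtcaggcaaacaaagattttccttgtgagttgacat

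Skint5: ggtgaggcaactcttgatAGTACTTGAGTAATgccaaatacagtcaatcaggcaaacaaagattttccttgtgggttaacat

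These stretches are chr4:112006020-112006101 (plus strand) for Skint1, chr4:112081405-112081486 (plus) for the second Skint4 start and chr4:112232124-112232205 (plus) for Skint3. For Skint6 the stretch is chr4:113287138-113287219 (minus) and for Skint5 chr4:113999668-113999749 (minus). The 14 bases began at position -231 from the start in Skint1, -228 in Skint6 and Skint5, -103 in Skint3 and -47 from the second start in Skint4. That second start lies 9454 bases from the GENCODE gene start, and the window of the first Skint4 start lacks the 14 bases. The run occurred in 5 of the 32851 promoter windows of the mouse table, on either strand, and all 5 belong to these genes. A second run of 13 bases, in capitals below, was held by Skint9, Skint10 and the neighbour Skint11, and by no other of the 32851 windows.

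Skint9: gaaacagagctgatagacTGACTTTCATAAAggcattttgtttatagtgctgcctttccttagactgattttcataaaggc

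Skint10: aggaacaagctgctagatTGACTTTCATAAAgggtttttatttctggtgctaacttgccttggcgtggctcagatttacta

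Skint11: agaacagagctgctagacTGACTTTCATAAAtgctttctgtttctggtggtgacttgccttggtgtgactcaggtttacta

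They are chr4:112434122-112434202 (minus) for Skint9, chr4:112774912-112774992 (minus) for Skint10 and chr4:114163304-114163384 (plus) for Skint11. Skint7 and Skint8 shared neither run but had 51 bases in common, in capitals below, which begin at position -52 from the RefSeq start in Skint7 and at -230 in Skint8. Counted from the GENCODE gene starts the positions are -48 and -67, so the distance in Skint8 depends on which start is used.

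Skint7: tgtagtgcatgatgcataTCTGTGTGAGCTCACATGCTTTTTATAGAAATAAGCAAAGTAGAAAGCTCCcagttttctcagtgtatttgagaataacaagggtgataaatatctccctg

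Skint8: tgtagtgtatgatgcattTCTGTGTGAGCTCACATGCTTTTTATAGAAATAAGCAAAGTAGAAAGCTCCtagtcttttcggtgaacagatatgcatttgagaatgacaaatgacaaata

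The stretches are chr4:111972857-111972975 (plus) for Skint7 and chr4:111919307-111919425 (plus) for Skint8. Over whole windows the closest pair was Skint6 and Skint5, with 269 of 300 bases identical. In coding sequence Skint7 and Skint8 were 90.5% identical over 1185 aligned bases, Skint5 and Skint6 88.5% over 3720, and Skint9 and Skint10 86.2% over 955, whereas the least similar pair with a member, Skint3 and Skint11, had 58.3%. Skint5 and Skint6 code for the longest proteins, of 1474 and 1239 residues, against 318 to 481 in the others. Of the distinct 50-base words in the transcripts, 8.11% in Skint8, 7.63% in Skint7, 5.09% in Skint6 and 3.97% in Skint5 also occurred in another gene. No source used here says how the authors assigned reads from such stretches, so the split of reads within these pairs is uncertain. Skint6 also shares 63 exon bases with the antisense gene Gm12823, whose reads cannot be told apart without strand.

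Letters of 7 known motif types were looked for on both strands of the 11 member windows. TATAAA was in 7 of 11, against 13.6% of all 32851 windows. On the strand of the gene it was found in the Skint1 window alone, at position -40. The other matches were on the opposite strand, at positions from -209 (Skint8) to 8 (Skint6). The C/EBP type TTGCNNCA was in 4 of 11, against 11.4%. The E-box letters CANNTG were in 8 of 11, against 72.3%, and the KLF/SP type GGGNGNGG in 2 of 11, against 49.5%. TGANTCA (AP-1), AGGTCA (nuclear receptor type) and AACCGGTT (grainyhead-like) were in 0 of 11 windows, against 7.81%, 16.3% and 0.146% of all. None of these strings is contained in another, and windows of related members share part of their sequence. A match describes the letters of a window and does not show that a factor binds there.

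Library depth, recovered from the FPKM values and exon lengths, was 31676934 to 42997271 reads. Epidermal keratins were abundant in both groups (Krt5 at 888 ± 124 FPKM with MC903 and 814 ± 70.6 with phytic acid, SD, n = 4 each). Of 12165 genes tested, 25.8% were called (limma on log2(FPKM + 1), Benjamini-Hochberg adjusted p under 0.05), 1722 higher and 1412 lower with phytic acid. Centring on basal keratinocyte genes made 3507 higher and 487 lower, and scaling by the median of ratios 1469 and 1828. MC903 replicate 3 stood apart in hair follicle genes, whose summed FPKM was 4850 there, 480 to 653 in the other MC903 libraries and 47.6 to 64.1 with phytic acid. Log2 fold changes of the Skint genes are therefore also given without that library.

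Every Skint gene had a higher mean with phytic acid, and for 9 of the 10 all phytic acid libraries lay above all MC903 libraries. Such separation upward was found for 14.3% of all genes tested. All 10 were called higher, against 14.2% of all genes tested, and nothing is read from these counts because the members were chosen on this contrast. The median log2 fold change, phytic acid minus MC903, was 2.36 for the 10 genes and 0.05 for all genes tested. All 10 passed the filter for low values (an FPKM of 1 or more in 4 or more libraries), but Skint2, Skint5, Skint6, Skint7 and Skint8 reached it through the phytic acid libraries, since only 1 or 2 of their MC903 values were at 1 or above. In whole tissue, fewer cells that express a gene and less RNA per cell cannot be told apart.

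**Figure D1:**
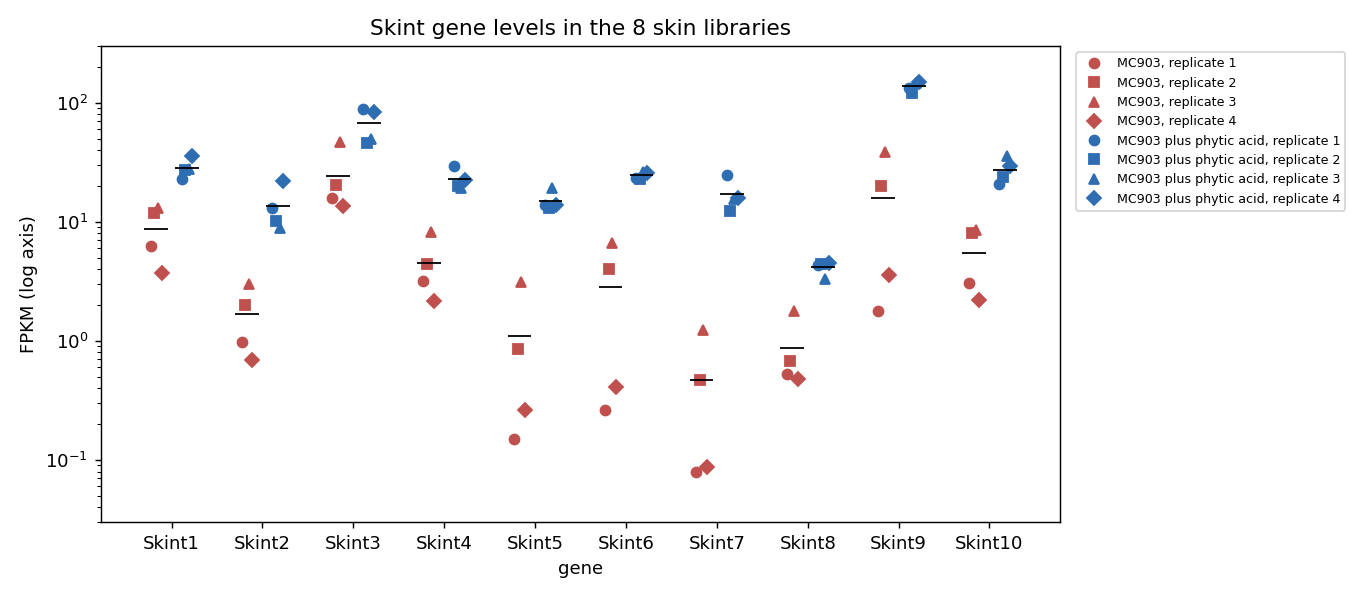
FPKM of each Skint gene (log axis) in the 4 MC903 libraries (red) and the 4 libraries of MC903 plus phytic acid (blue), with marker shape for the replicate and a bar at the group mean. The groups overlap only for Skint3, and the red triangle, MC903 replicate 3, is the highest MC903 value of all 10 genes.

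Skint1, which is needed to select epidermal gamma delta T cells in the thymus, had FPKM values of 6.29, 11.9, 13.2 and 3.71 with MC903 and of 23.1, 27.0, 27.7 and 35.5 with phytic acid, given here and below for replicates 1 to 4 in that order. The groups did not overlap, and the means were 8.77 ± 4.51 and 28.3 ± 5.22 (SD, n = 4 each). Its log2 fold change was 1.70 ± 0.32 (SE), and 1.93 without MC903 replicate 3.

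Skint3 and Skint9, the members linked with the contact between wound-edge keratinocytes and T cells, had the highest mean levels in both groups. Skint3 was at 15.8, 20.2, 47.1 and 13.5 FPKM with MC903 and at 89.3, 45.5, 49.9 and 83.9 with phytic acid. MC903 replicate 3 lay just above phytic acid replicate 2, which made Skint3 the one member whose groups overlapped. The log2 fold change was 1.55 ± 0.37 (SE), and 1.92 without MC903 replicate 3. Skint9 was at 1.79, 20.1, 38.4 and 3.59 FPKM with MC903 and at 134, 121, 147 and 151 with phytic acid. With MC903 it lay above Skint1 in 2 of 4 libraries, so its mean there rests on replicates 2 and 3. Its MC903 libraries fell into 2 low and 2 middle values, 21.4-fold from lowest to highest, while the phytic acid libraries stayed within 1.25-fold. The means were 16.0 ± 17.1 and 138 ± 13.6 (SD, n = 4 each), and the log2 fold change of 3.77 ± 0.72 (SE), 4.42 without MC903 replicate 3, had the widest SE of the family. Among all genes tested, on the log2(FPKM + 1) scale, 2 had a larger log2 fold change than Skint9.

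Skint10, the closest relative of Skint9 in coding sequence, was at 3.05, 8.02, 8.61 and 2.21 FPKM with MC903 and at 20.6, 23.7, 35.5 and 29.5 with phytic acid. The same MC903 libraries were high as for Skint9, but they spanned 3.90-fold. Its log2 fold change was 2.26 ± 0.35 (SE), smaller than that of Skint9, and 2.51 without MC903 replicate 3. Skint9 and Skint10 thus share the 13-base run and most of their coding sequence and had different fold changes, a difference that was not tested.

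Skint5 and Skint6, the pair of long members, had close log2 fold changes at different levels, with Skint6 above Skint5 in all 8 libraries. Skint5 was at 0.151, 0.850, 3.14 and 0.262 FPKM with MC903 and at 13.9, 13.1, 19.2 and 13.9 with phytic acid. Skint6 was at 0.264, 4.04, 6.70 and 0.413 FPKM with MC903 and at 23.5, 22.7, 26.4 and 25.8 with phytic acid. Both were low in MC903 replicates 1 and 4 and higher in replicates 2 and 3, and neither had overlapping groups. Their log2 fold changes were 3.12 ± 0.35 and 3.15 ± 0.52 (SE), and 3.51 and 3.62 without MC903 replicate 3.

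Skint7 and Skint8 are neighbours and the most similar pair, yet their levels with phytic acid were far apart. Skint7 was at 0.0791, 0.469, 1.25 and 0.0872 FPKM with MC903, from 10, 60, 187 and 13 reads, and at 24.5, 12.3, 15.4 and 15.8 with phytic acid. Skint8 was at 0.529, 0.683, 1.77 and 0.477 FPKM with MC903 and at 4.33, 4.44, 3.32 and 4.49 with phytic acid. With MC903 alone Skint8 exceeded Skint7 in 4 of 4 libraries, and with phytic acid Skint7 exceeded Skint8 in every library. The log2 fold change was 3.64 ± 0.26 (SE) for Skint7 and 1.51 ± 0.20 for Skint8, and 3.87 and 1.71 without MC903 replicate 3. This scale understates the change of both, since their MC903 values are low. With a pseudocount of 0.01 the log2 fold changes were 5.94 and 2.45. The mean FPKM of Skint7 with MC903 was 0.470 ± 0.548 (SD, n = 4), and the phytic acid mean was 36.1 times as high. Without MC903 replicate 3 the MC903 mean was 0.212 ± 0.223 (SD, n = 3) and the ratio 80.2.

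Skint2 and Skint4, which are 79.8% identical in coding sequence, had middle fold changes. Skint2 was at 0.980, 2.003, 3.02 and 0.696 FPKM with MC903 and at 13.1, 10.2, 8.87 and 22.1 with phytic acid. Skint4 was at 3.16, 4.45, 8.27 and 2.15 FPKM with MC903 and at 29.3, 20.03, 19.3 and 22.6 with phytic acid. Neither gene had overlapping groups, and phytic acid replicate 3 was the lowest of its group for both. Their log2 fold changes were 2.45 ± 0.32 and 2.21 ± 0.29 (SE), and 2.67 and 2.501 without MC903 replicate 3. The order of the fold changes depends on the pseudocount. With a pseudocount of 1 they ran from 1.51 (Skint8) to 3.77 (Skint9), and with 0.01 from 1.60 (Skint3) to 5.94 (Skint7), with Skint9 at 4.03. With a pseudocount of 1, the 5 genes that hold the 14-base run had log2 fold changes from 1.55 to 3.15 and the 5 that lack it from 1.51 to 3.77, so the ranges overlapped.

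Per length of exon, the order of mean levels changed between the groups. With MC903 it ran Skint3, Skint9, Skint1, Skint10, Skint4, Skint6, Skint2, Skint5, Skint8, Skint7, and the ranges of all neighbours in this order overlapped. With phytic acid it ran Skint9, Skint3, Skint1, Skint10, Skint6, Skint4, Skint7, Skint5, Skint2, Skint8. There the ranges of Skint9 and Skint3, of Skint3 and Skint1, and of Skint2 and Skint8 did not overlap, and those of the other neighbours did. Summed over the family, FPKM was 27.1 to 131 with MC903 and 300 to 404 with phytic acid. Skint9 made up 5.58% to 29.2% of this sum with MC903 and 35.6% to 41.6% with phytic acid. Skint3 went the other way, from 27.8% to 49.9% with MC903 and from 14.2% to 23.8% with phytic acid. Skint7 made up 0.246% to 0.947% with MC903 and 3.91% to 6.53% with phytic acid, whereas the share of Skint8 overlapped between the groups, at 0.939% to 1.76% and 0.943% to 1.48%.

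**Figure D2:**
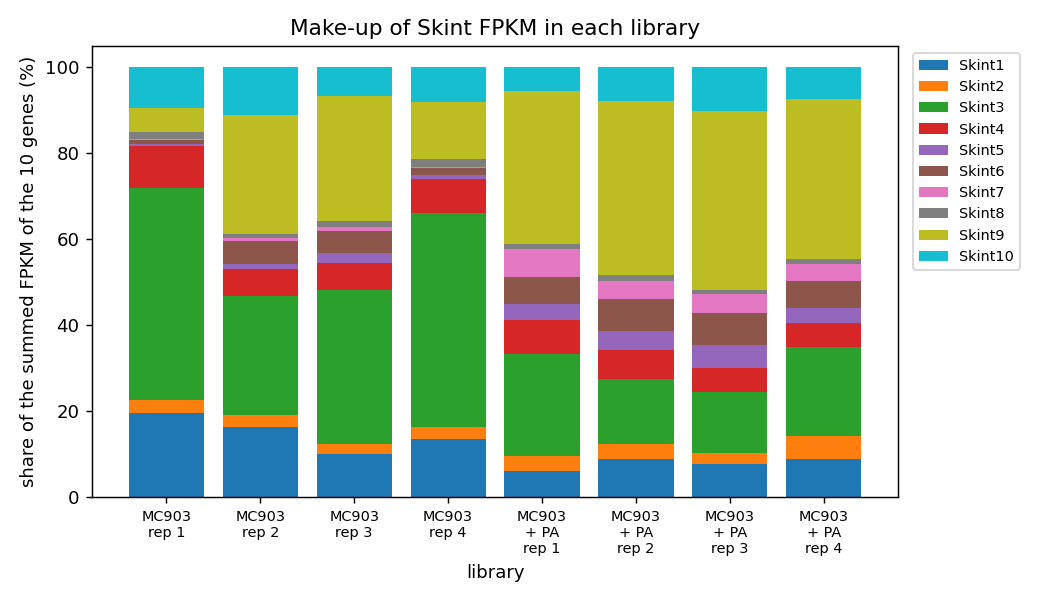
Share of each Skint gene in the summed FPKM of the 10 genes (%), with 1 bar for each library (MC903, then MC903 plus phytic acid, shown as PA). Skint3 (green) takes 27.8% to 49.9% of the bar with MC903 and Skint9 (olive) 35.6% to 41.6% with phytic acid.

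Within the MC903 group, all 10 genes put the libraries in the same order. Replicate 3 was the highest, replicate 2 came next, and replicates 1 and 4 were the lowest. This order was read from the members themselves, and 10.4% of all genes tested followed it. Replicate 3 alone was highest of MC903 for 46.2% of all genes tested. The spread differed between members. Skint5, Skint6, Skint7 and Skint9 spanned 15.7-fold to 25.4-fold from the lowest to the highest MC903 library, and the other 6 spanned 3.48-fold to 4.34-fold. On the log2(FPKM + 1) scale the median range within MC903 was 1.59 for the 10 genes and 0.38 for all genes tested. With phytic acid no common order was seen, replicate 4 was highest for 4 of 10 members, and the spans were 1.16-fold to 2.49-fold.

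**Figure D3:**
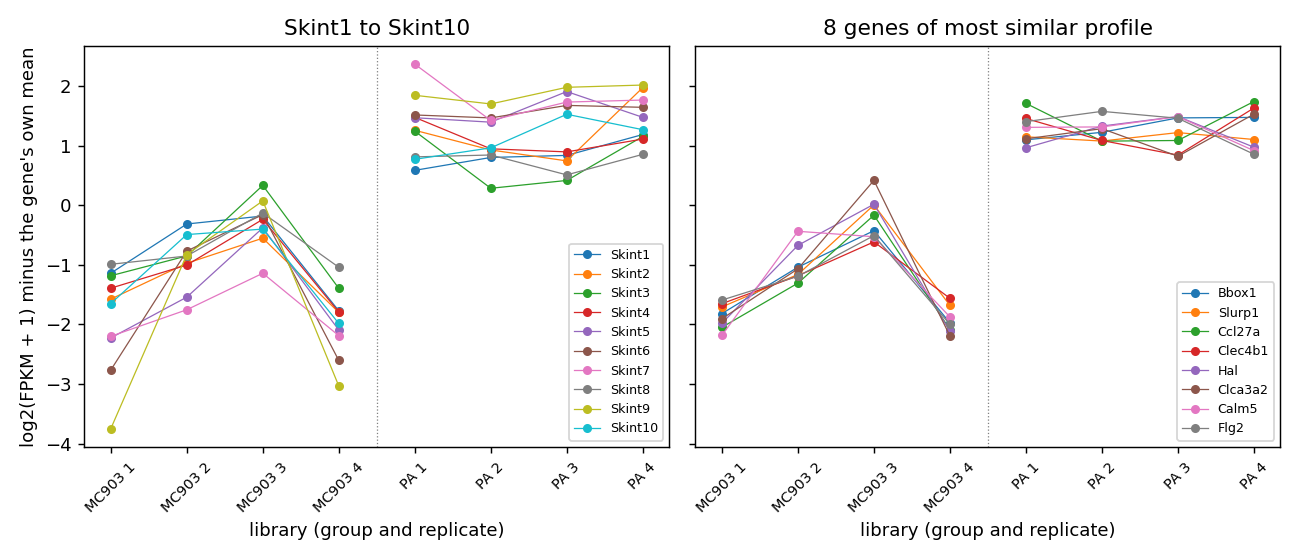
Values of log2(FPKM + 1) minus the gene's own mean in the 8 libraries (PA is MC903 plus phytic acid), for the 10 Skint genes on the left and for the 8 genes of most similar profile on the right. Lines only link the values of 1 gene within a group, and replicates have no order. MC903 replicate 3 has the highest MC903 value of every Skint gene.

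The genes whose profile over the 8 libraries was closest to the mean Skint profile were ranked by the root mean square difference of own-mean-centred log2(FPKM + 1). They were Bbox1 (0.148), Slurp1 (0.223), Ccl27a (0.233), Clec4b1 (0.272), Hal (0.291), Clca3a2 (0.318), Calm5 (0.320) and Flg2 (0.329). The Skint genes themselves were 0.259 (Skint4) to 0.886 (Skint9) from their own mean profile. Hal makes urocanic acid from histidine in the cornified layer, Flg2 is a filaggrin-like barrier protein, and Ccl27a is a keratinocyte chemokine that attracts skin-homing T cells. Bbox1, an enzyme of carnitine synthesis, was at 4.99, 9.27, 14.7 and 4.38 FPKM with MC903 and at 44.1, 48.2, 57.2 and 57.6 with phytic acid. Apart from Calm5, the 8 genes followed the MC903 order of the Skint genes. Since they were chosen by likeness over all libraries, those of MC903 included, this follows largely from the choice.

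Beside the cluster the share of genes called was near that of all genes. Of 10 other genes in the table within 1000000 bases of either end, 5 were tested, and 1 was called, the relative Skint11, against 25.8% of all genes tested. Without MC903 replicate 3, 3 of the 5 were called. Skint11 rose from 14.1 ± 8.12 to 35.7 ± 7.32 FPKM (SD, n = 4 each), a log2 fold change of 1.43 ± 0.36 (SE, adjusted p = 0.0178, limma). Without MC903 replicate 1 its adjusted p (limma) was 0.0526. Its MC903 values of 7.93, 22.6, 19.6 and 6.47 did not follow the Skint order, since replicate 2 exceeded replicate 3. Slc5a9, a sugar transporter and the nearest tested gene before the cluster at 16474 bases, was at 2.90 ± 1.68 and 5.11 ± 0.729 FPKM (SD, n = 4 each), with an adjusted p of 0.0597 (limma). Without MC903 replicate 3 the adjusted p of Slc5a9 was 0.00263 (limma).

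**Figure D4:**
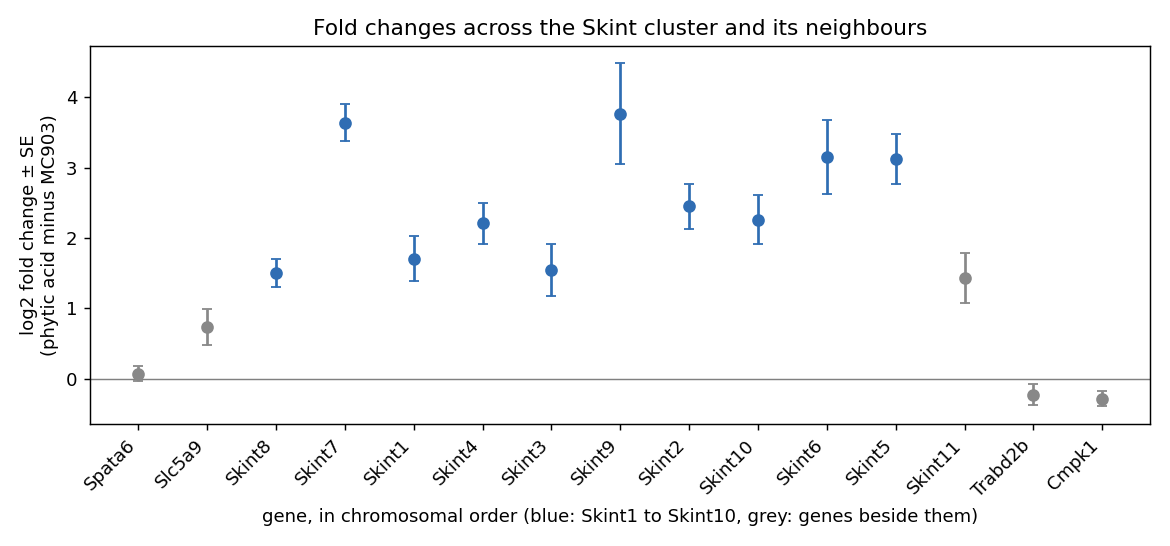
Log2 fold change of FPKM (phytic acid minus MC903, from log2(FPKM + 1), 4 libraries a group) with its standard error, for the tested genes in chromosomal order, Skint1 to Skint10 in blue and the genes beside them in grey. On this scale, with a pseudocount of 1, values run from 1.51 (Skint8) to 3.77 (Skint9) and Skint11 lies at 1.43. With a pseudocount of 0.01 the ends are Skint3 and Skint7.

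Other butyrophilin and B7 relatives, which tune T cell activation, included few tested genes. Of 22 listed, 19 were in the table and 8 were tested. Of these, 3 were called higher and 1 lower, against 14.2% and 11.6% of all genes tested. The median of the 8 log2 fold changes was 0.23, against 0.05 for all genes. The costimulatory ligand Cd86 rose from 3.86 ± 0.678 to 7.90 ± 1.90 FPKM (SD, n = 4 each), and Skint11 and Pdcd1lg2, a ligand of PD-1, also rose. All MC903 values of Pdcd1lg2 were under 1 FPKM, so it met the filter only through the phytic acid libraries. Nothing is read from its call. Cd276, a B7 family member, fell from 4.04 ± 1.02 to 2.37 ± 0.553 FPKM, but under 10 of the 20 other settings, among them TPM scaling and basal centring, no gene of this list was called lower. Of the classical butyrophilins Btn1a1 and Btn2a2 and the epithelial Btnl1, Btnl4 and Btnl6, none reached 0.2 FPKM in any library. Higher values were seen for Btnl9, at 0.375 to 1.14 FPKM, and for Btnl2, at up to 0.588, and neither passed the filter for testing.

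Genes typical of epidermal gamma delta T cells and their kin were higher in part. Of 22 in the table, 16 were tested, and the log2 fold changes had a median of 0.96. Among the 16, 10 were called higher and 1 lower, against 14.2% and 11.6% of all genes tested. Xcl1, a chemokine of activated T and natural killer cells, was at 0.0604, 0.298, 0.457 and 0.0511 FPKM with MC903 and at 5.68, 2.70, 2.001 and 4.92 with phytic acid. Its log2 fold change was 1.93 ± 0.25 (SE). The activating receptor Klrk1 (NKG2D), its lectin-like relative Klrd1 and the T cell receptor subunit Cd3g also rose, by 0.94 ± 0.13, 1.13 ± 0.16 and 1.65 ± 0.25 (log2, SE). All MC903 values of Xcl1 and Klrk1 were under 1 FPKM, so both met the filter only through the phytic acid libraries. Genes that pass in this way must be higher with phytic acid. Nothing is therefore read from their calls, which the count of 10 higher includes. Sema4d, a semaphorin of these cells, was the one called lower, and under 9 of the 20 other settings, among them TPM scaling, basal centring and the replicate block, none was. The MC903 order of the Skint genes was seen in 7 of the 16, against 10.4% of all genes tested. Many of these genes are also used by other T and natural killer cells. Of the alpha beta T cell list, 3 of 3 tested genes (Ccr7, Cd4 and Ctla4) were called higher, and Cd8a stayed under 0.42 FPKM. Summed levels were 4.75 to 9.14 FPKM with MC903 and 7.97 to 16.4 with phytic acid for that list, and 81.9 to 94.4 and 96.2 to 199 for the gamma delta list. The largest means of the gamma delta list with MC903 were 35.1 FPKM for Fcer1g, 21.9 for Thy1 and 8.19 for Jaml, none of them called. The 2 sums therefore do not measure how abundant either kind of T cell was. The delta chain genes Trdc and Trdv4 were not analysed here, so the 2 kinds of T cell cannot be told apart by them.

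Other genes listed as keratinocyte partners of skin T cells were higher in part. Of 16 tested, 6 were called higher and 2 lower, against 14.2% and 11.6% of all genes tested. The log2 fold changes of the 16 had a median of 0.46. The 2 called lower were Cdh1, at 110 ± 8.09 FPKM with MC903 and 85.1 ± 8.89 with phytic acid, and Plxnb2, at 29.1 ± 3.91 and 21.2 ± 3.75 (SD, n = 4 each). None was called lower under 7 of the 20 other settings, among them TPM scaling, basal centring and the replicate block. The chemokines Ccl17 and Ccl27a rose by 3.06 ± 0.36 and 2.80 ± 0.39 (log2, SE), Il15, a growth factor of epidermal T cells, by 0.90 ± 0.11, and Il34, a growth factor of Langerhans cells, by 1.18 ± 0.14. Ccl27a was at 2.15, 4.27, 10.6 and 2.07 FPKM with MC903, the order of the Skint genes, and at 41.5, 26.4, 26.6 and 42.5 with phytic acid.

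Keratinocyte layers and states moved unevenly beside the Skint genes. Of 22 suprabasal genes tested, 8 were called higher and 3 lower, against 14.2% and 11.6% of all genes tested. The Skint order within MC903 was followed by 8 of the 22, against 10.4% of all genes tested. Krt77, a keratin of sweat duct and suprabasal epidermis, was at 4.77, 25.0, 74.2 and 5.67 FPKM with MC903 and at 1433, 1195, 1531 and 1357 with phytic acid. Flg2 and Sbsn rose by 2.64 ± 0.29 and 0.96 ± 0.13 (log2, SE), while Dsg1b, a desmosomal cadherin, fell by 1.18 ± 0.14. Of 15 basal genes, 2 were called higher and 5 lower, with Krt15 at 119 ± 39.1 and 459 ± 46.1 FPKM and Krt14 at 5275 ± 1619 and 1357 ± 254 (SD, n = 4 each). Of 25 wound keratinocyte genes, 20 were called lower and 0 higher, and Krt16 and Krt6a fell by 3.99 ± 0.41 and 4.02 ± 0.41 (log2, SE). In MC903 replicates 1 to 4 the summed wound genes were at 9815, 11836, 5950 and 12615 FPKM. The summed Skint genes were at 32.1, 72.8, 131 and 27.1 FPKM in the same libraries. Replicate 3 had the highest Skint sum and the lowest wound sum. Replicate 2, of the next highest Skint sum, lay above replicate 1 in both sums. The part of these differences in the Skint values was not tested.

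**Figure D5:**
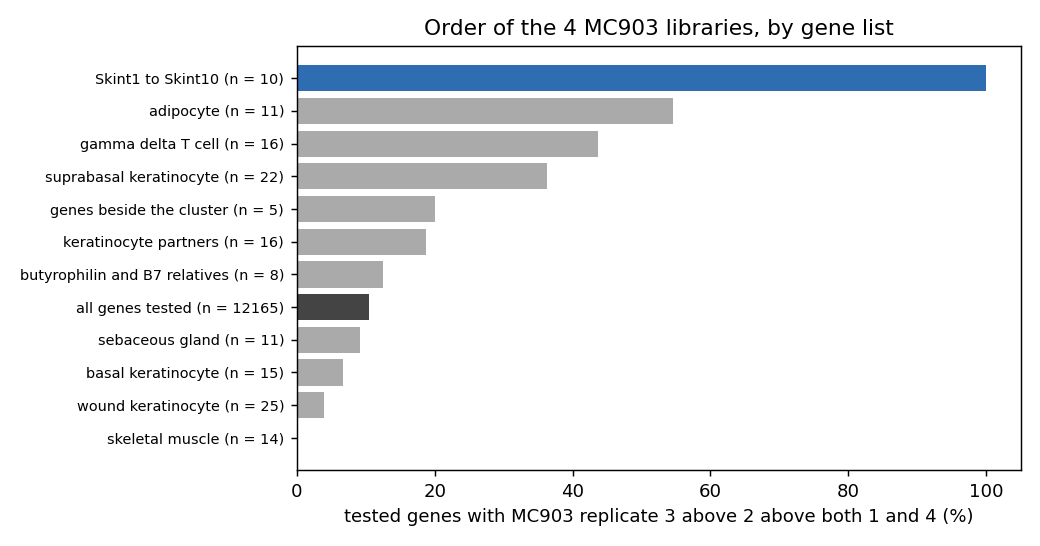
Share of tested genes (%) in which the MC903 libraries fell in the order replicate 3 above replicate 2 above both replicates 1 and 4, by gene list with at least 5 tested genes (n in brackets). The share is 100% for the 10 Skint genes, from which the order was read, and 10.4% for all genes tested.

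Markers of other tissues also differed between the groups. For comparison, 14.2% of all genes tested were called higher, 11.6% were called lower and 10.4% followed the Skint order within MC903. Summed skeletal muscle genes were at 4432 to 5243 FPKM with MC903 and 9581 to 11181 with phytic acid, with 12 of 14 tested genes called higher and 0 following the Skint order. Summed adipocyte genes were at 386 to 813 and 934 to 1817 FPKM, with 4 of 11 called higher and 6 following that order. For hair follicle genes, 2 of 3 tested were called lower and 3 of 3 followed that order. The called Tchh was at 458, 539, 904 and 437 FPKM with MC903 and at 17.8 to 25.3 with phytic acid. Krt75, also called, was at 31.2, 46.2, 82.7 and 32.4 FPKM with MC903 and at 5.07 to 10.4 with phytic acid. The defining Krt71 was at 0.0289, 22.3, 1373 and 0.135 FPKM with MC903 and at 0.0898 or less in every phytic acid library. For Krt71, unlike Tchh and Krt75, MC903 replicates 1 and 4 were about as low as the phytic acid group. Of 11 sebaceous genes, 3 were called higher and 3 lower. Of the list for thymic epithelium, the other site of Skint1, 1 of 3 tested genes (Ly75) was called higher. Of the markers set as defining, Aire and Psmb11 were at or near 0 in all libraries, with Aire at most 0.0577 FPKM. Foxn1, also set as such, was tested and not called. It was at 2.004, 1.57, 10.9 and 2.21 FPKM with MC903 and at 2.15, 2.08, 0.753 and 1.17 with phytic acid. Its highest value was in MC903 replicate 3, the library that stood apart in hair follicle genes. In whole skin these values do not show which cells express Foxn1 or Ly75, so neither is read as a sign of thymic cells. The part of these tissues in the Skint differences was not tested.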

How the data were processed

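RNA-seq of mouse skin was analysed, 4 libraries of MC903 and 4 of MC903 plus phytic acid, grouped by the labelled treatment. The values are FPKM per gene, deposited by the authors. Tools listed per the submitters' processing notes, with no role or order, are cutadapt, HISAT2, TopHat2 and DESeq, and the build is mm10. No source used here gives versions, annotation or strand setting. FPKM is relative to the library total, so large changes in abundant genes shift the rest. Of 21959 rows, 51 unnamed ones, holding 0.0160% to 0.0238% of each library's FPKM, were left out, and for 21 repeated names the row of highest mean was kept. FPKM times exon length (GENCODE M21) gave whole reads within 0.05 for 17509 of 17976 genes (97.4%), which gave the depths.

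Values were tested as log2(FPKM + 1), pseudocount 1, with limma 3.58.1 in R 4.3.3 (eBayes with trend, two-sided, group only), for genes that reached an FPKM of 1 in 4 or more libraries. Calls used a Benjamini-Hochberg adjusted p under 0.05 over all 12165 genes. The fit was tested on simulated data. Sequences were aligned with Biopython 1.88. Other pseudocounts, filters, scalings, voom on the recovered reads, library weights, a replicate block and leaving out each library were tried.

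The members and the 12 gene lists were chosen with earlier results of these data known. Genes named are every member, up to 4 called genes of smallest p in a list (up to 2 of highest mean where none was called), the nearest tested gene before the cluster and each called gene beside it, the 8 genes of closest profile, and defining markers of other tissues. Ccr7, Cd4, Ctla4, Cd8a, Sema4d, Fcer1g, Thy1, Jaml, Cdh1 and Plxnb2 were named after their values were seen. So were the shared promoter runs, the low butyrophilins and the genes listed at or near 0.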

Additional observations from a re-analysis of the deposited data

Results flagged for a closer look

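In groups of 4, a single library far from the other 3 was found for 3 of the 20 sets of Skint values, by the gap to its nearest neighbour over the whole range of the group. For independent normal values chance alone gives this in about 1 of 20 groups. The 20 sets come from the same 8 libraries and are not independent, so nothing is read from their count. Skint5 was at 19.2 FPKM in phytic acid replicate 3, above the other 3 libraries of its group. Skint8 was at 1.77 FPKM in MC903 replicate 3, above the other 3 MC903 libraries. Skint8 was at 3.32 FPKM in phytic acid replicate 3, below the other 3 libraries of its group.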

How the results depend on the processing

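As the Skint genes were chosen on this contrast, their calls under other settings show nothing of stability. Their median log2 fold change was 2.29 to 2.84 under other settings and 2.12 to 2.59 with 1 library left out. Single fold changes grew where low values were treated otherwise. That of Skint7 was 5.94 with a pseudocount of 0.01 and at most 5.98 over the other settings. Centring on basal keratinocyte genes moved the median of all genes from 0.05 to 0.33 (log2).

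Of all genes, 3134 were called, 4796 with library weights and 2013 to 3979 with 1 library left out, the lowest without MC903 replicate 1. Of the relatives 4 were called, 2 with the filter on a mean FPKM of 5, and 1 to 4 with 1 library left out (1 without MC903 replicate 1, 2 without replicate 2 or 4). Of the gamma delta T cell genes 11 were called, 1 under that same mean filter, where 4 were tested, and 8 to 11 with 1 library left out. Beside the cluster 1 gene was called, 2 with basal centring, 3 with library weights, and 0 to 3 with 1 library left out (0 without MC903 replicate 1, 3 without MC903 replicate 3). Of the keratinocyte partners 8 were called, and 5 to 8 with 1 library left out (5 without replicate 1 of MC903, and likewise without replicate 4 of either group). Apart from the smaller numbers tested, the cause was not tested.

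Same-numbered libraries mostly did not deviate together (correlations -0.28, -0.10, -0.29 and 0.23, the best match in 1 of 4 pairs). With 4 libraries a group this cannot exclude that they were paired. With the replicate block 2046 genes were called, with 7 gamma delta T cell genes and 5 keratinocyte partners. Skint7 rests on 10 to 187 reads in the MC903 libraries, which limits its fold.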
